A study of Danio rerio with 3 samples.

Results

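CD8 single-positive thymocytes are T cell precursors that have passed selection, kept the CD8 coreceptor and lost CD4. They were examined here in the thymus of lck:GFP zebrafish, in which a T cell kinase promoter, lck, drives GFP, and which was profiled by droplet single-cell RNA sequencing. A thymus barcode counted as a CD8 single-positive cell if it held at least 1 UMI (a counted mRNA molecule) of cd8a or cd8b. It also had to hold no UMI of cd4-1, cd4-2.2, rag1 or rag2, and fewer than 3 UMIs of the division genes mki67 and top2a together. Cells with under 1000 UMIs, under 250 genes or over 10% mitochondrial UMIs were left out. Of the 3230 thymus cells that remained, 111 met the rule. That is 3.44% (exact Clopper-Pearson 95% interval 2.84 to 4.12) of the thymus cells, out of 4568 cells in the whole series.

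All 3 libraries, 1 per tissue, came from lck:GFP fish under tricaine anaesthesia. Cells were sorted from lymphoid and precursor gates, GFP-high cells for the thymus and GFP-low cells for kidney marrow and scale. The labels give neither the age nor the number of fish, and no treatment. The reference classes in the same library were 110 CD4 single-positive cells, which met the mirrored rule, and 1847 double-positive cells with at least 1 UMI each of rag1, cd4-1 and cd8a or cd8b. Outside the thymus, 70 of 983 kidney marrow cells and 17 of 355 scale cells met the CD8 rule. With 1 library per tissue no difference has a replicate check, so no p-value is given and all intervals cover counting error only.

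In vertebrates a thymocyte first rearranges its T cell receptor genes with the Rag recombinase and carries both coreceptors. A receptor signal of moderate strength then ends rearrangement, and the cell keeps CD8 if it was selected on MHC class I or CD4 if it was selected on MHC class II. In mice Zbtb7b (ThPOK) drives the CD4 choice and Runx3 the CD8 choice. Mature thymocytes gain the interleukin-7 receptor, lose the thymic retention programme and leave for the periphery, where CD8 cells can become killers that hold granzymes and perforin.

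The 111 cells held 276502 UMIs, with a median of 2018 per cell (1017 to 9596) and 780 genes. The median was 1985 UMIs in the CD4 cells, 1877 in the double-positive cells, 3578 in the marrow cells and 3683 in the scale cells. No cell barcode was shared between libraries. No doublet caller was used.

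The rule rests on few molecules. Coreceptor UMIs per cell ran between 1 and 26 with a median of 2; 39 cells held a single one, 32 held 2 and 40 held 3 or more. Both cd8a and cd8b were seen in 43 cells, cd8a alone in 30 and cd8b alone in 38. Just outside the rule, another 111 cells met every other condition with no cd8 UMI, 45 held a single cd4 UMI, 69 a single rag UMI, and 13 held 3 or more division UMIs. When each double-positive cell was thinned to 1000 UMIs, 18 of 1847 (0.975%, interval 0.579 to 1.54) met the CD8 rule. How many of the 111 are double-positive cells with undetected rag1 or cd4-1 was not tested beyond this.

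The mix of the coreceptor chains differed between the classes. CD8 is built as an alpha-alpha or an alpha-beta dimer. Of the 343 CD8 UMIs of the CD8 single-positive cells, cd8a made up 36.7% (31.6 to 42.1), against 22.7% (21.9 to 23.5) in double-positive cells. Limiting the double-positive cells to those with fewer than 3 division UMIs gave 23.2%. The share was 55.4% (47.7 to 62.8) in marrow cells and 69.2% (48.2 to 85.7) in scale cells. The rule used the sum of both genes, so these shares are given as a description.

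Markers other than those of the rule were checked next. The constant gene of the receptor's beta chain, trbc1 (listed as FP236356.1), was found in 108 of 111 cells, and in 8 of 10 thymus cells of a haemoglobin-led cluster, while trdc of the delta chain was found in 3 of the 111. After thinning to 1000 UMIs the trbc1 shares were 82.9% (74.6 to 89.4) and 7 of 10 (34.75 to 93.33%), intervals that overlap. The B cell and thrombocyte marker lists had 0 UMIs in the 111 cells. Other lists were not empty. Of the 111 cells, 65 held 2 or more UMIs of other lineages, on lists that include cd74a and srgn. Several summed list levels (CPM, defined below) were above those of double-positive cells. They were 6087 against 804 for macrophage or dendritic genes and 485 against 98.2 for erythroid genes. Neutrophil or granulocyte genes were at 300 against 59.2, and NK-like genes at 50.6 against 4.43. Thymic epithelium and stroma genes were lower, at 43.4 against 116. The 7 defining macrophage genes (mpeg1.1, marco, csf1ra, mfap4, c1qa, c1qb and c1qc) were found at 2 or more UMIs in 4 cells, and haemoglobin genes led the cluster of 1 other cell. The haemoglobin-led cluster served as the measure of background. Of its 10 cells (median 1574 UMIs), 6 held gfp and 3 held rorc after thinning to 1000 UMIs. Without thinning rag1 was found in 50% of them, and the 10 include 1 CD8 and 3 double-positive cells, so free RNA, doublets and T cells cannot be told apart there. At 1000 UMIs the CD8 shares of gfp, h2afx, tox, arpp21, rorc, p2rx1 and cd40lg were at or below those of the haemoglobin-led cells. Below, the CD8 share of each of these 7 genes is called at background in this sense only. Because the 10 cells include T cells, this measure cannot say whether such UMIs in CD8 cells are free RNA. None of the 10 held zbtb7b, foxp3b, il7r or id3 after thinning, which allows a share of up to 30.85%; without thinning 1 of the 10 held id3.

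Clusters made without the 8 genes of the class rules split the CD8 cells over a pair of clusters. Cluster 2, led by zbtb7b, anks1b and foxp3b, held 56 of the 111 CD8 cells (50.5%, interval 40.8 to 60.1), 77 of the 110 CD4 cells (70%) and 16 double-positive cells (0.866%). Cluster 6, led by tmem97 and si:ch211-184m13.4, held 33 CD8 cells (29.7%, interval 21.4 to 39.2), 13 CD4 cells (11.8%) and 46 double-positive cells (2.49%). Another 7 CD8 cells lay in a cluster led by nr4a genes, 4 in the c1qc-led cluster, and 1 in the haemoglobin-led one. Of the remaining 10, 4 lay in a cluster led by ch25h, plp1a and cebpd, 3 in cluster 1, 2 in cluster 3 and 1 in cluster 13. Leaving out the ch25h-led cluster kept every gene named by rank past 2-fold in all 3 comparisons. The double-positive cells sat elsewhere, the largest block being the 28.9% in cluster 0, where no CD8 or CD4 single-positive cell lay.

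**Figure D1:**
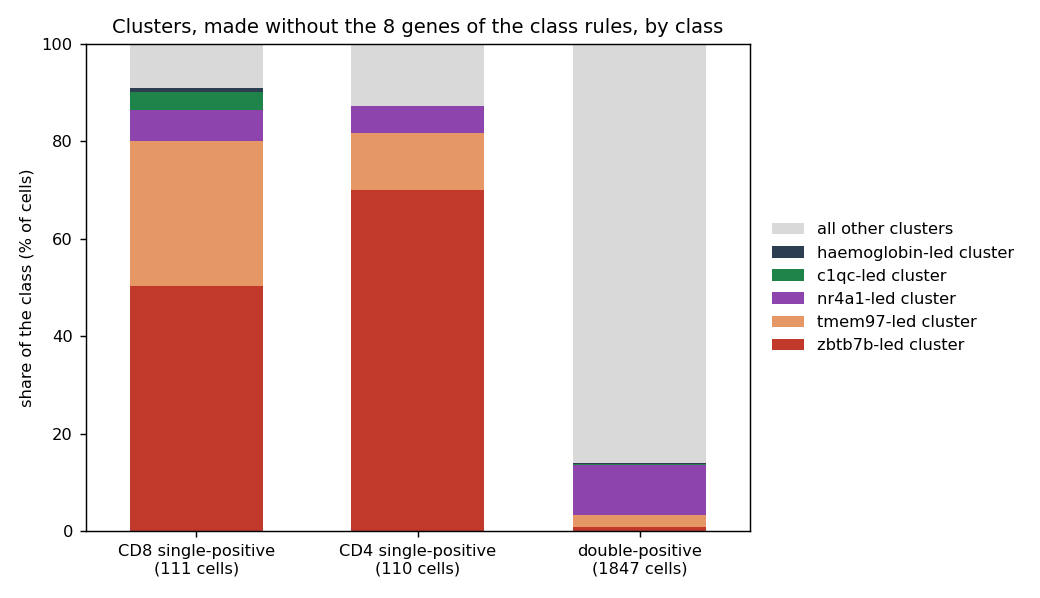
Share of each thymus class (vertical axis, % of its cells) in the clusters that hold most single-positive cells, with all other clusters in grey. The zbtb7b-led and tmem97-led clusters hold 50.5% and 29.7% of the CD8 cells, and 0.866% and 2.49% of the double-positive cells.

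The cells carry a working name of mature CD8 thymocytes, and the data met it in part. Genes of late maturation and egress were at or near 0 (s1pr1 and s1pr4 with 0 UMIs, klf2a with 1). The double-positive cells had 0 UMIs of s1pr1 as well. Other genes of the maturation and egress list went the other way. Of its 6 tested genes 2, il7r and tcf7, were called higher than in double-positive cells, against 9.84% over all genes, and none lower. By the rule none of the 111 cells held rag1. Of the 111, 33 lay in a cluster that as a whole had rag1 in 54% of its cells. The zbtb7b-led cluster, with 56 of the 111, as a whole had it in 40.2%. In the haemoglobin-led cluster the share was 50%, so these shares cannot be told from background. They also say nothing direct about the 111 cells. How mature the cells are is not settled by these values, so they are called CD8 single-positive cells throughout.

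The 2 clusters of CD8 cells differed in foxp3b, zbtb16a, il7r and id3. In the zbtb7b-led cluster the cells carried foxp3b, a paralogue of the regulatory T cell factor gene, at 28 UMIs in 18 of 56 cells. The 33 cells of the tmem97-led cluster held 0 UMIs of it, which at their depth allows up to 62.9 CPM. The zbtb7b-led cells were thus at least 2.47-fold higher. Likewise zbtb16a, the PLZF factor of innate-like T cells, had 31 UMIs in 19 of 56 cells against 0 UMIs, at least 2.74-fold higher. The interleukin-7 receptor gene il7r stood at 361 CPM (UMIs per 1000000) in the zbtb7b-led cells and 126 CPM in the tmem97-led cells, a ratio of 2.87 (1.25 to 8.10). The E-protein inhibitor id3 stood at 621 and 335 CPM, a ratio of 1.85 (1.09 to 3.35). These genes took part in the clustering, so the values are a description. The other paralogue, foxp3a, showed no such difference, at 72.1 CPM in the zbtb7b-led cells and 83.8 CPM in the tmem97-led cells. Its ratio was 0.86 (0.27 to 3.62), on 13 and 4 UMIs. On the maturation and egress list, which holds il7r, tcf7 had a ratio of 1.06 (0.42 to 3.17) and ikzf1 one of 1.06 (0.48 to 2.66). For bach2b it was 0.44 (0.18 to 1.14). A difference between the clusters could not be told for any of these.

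Several genes of the double-positive stage list were lower in the zbtb7b-led cells, but not all. The nuclear receptor gene rorc, which keeps double-positive cells alive in mice, was at 27.7 CPM in the zbtb7b-led CD8 cells and 293 CPM in the tmem97-led CD8 cells. In the same order arpp21 was at 38.8 and 230.5 CPM, and the thymus-homing receptor ccr9b at 200 and 838 CPM. The list genes si:ch211-106j24.1, tcf12 and rasa4 were also lower. But ccr9a was level, at 754.5 and 733.4 CPM, a ratio of 1.03 (0.705 to 1.54). On few UMIs p2rx1 had a ratio of 1.19 (0.247 to 11.3), and cd28 had 3 UMIs against 0. Outside the list, the histone variant gene h2afx was at 211 and 1488 CPM. The receptor gene trbc1 was at 1681 CPM in the zbtb7b-led cells and 4987 CPM in the tmem97-led cells, a ratio of 0.337 (0.284 to 0.401). The signal-induced gene egr1 (194 against 566 CPM) and the selection factor tox (244 against 629 CPM) were lower in the zbtb7b-led cells as well. Other genes of the selection and immediate early list were not. In the zbtb7b-led cells jun was higher, at 144 against 21.0 CPM, a ratio of 6.88 (1.13 to 282). The jund gene had 34 UMIs, in 6 of 56 cells, against 0, and nr4a1 had a ratio of 0.688 (0.230 to 2.47). The runx3 gene was lower in the zbtb7b-led cells, at 239 against 817 CPM, a ratio of 0.292 (0.185 to 0.462). Over all CD8 cells the shares of rorc, arpp21, h2afx and tox were at background, and that of runx3 could not be told from it. The source of these UMIs in either cluster was not tested. In the tmem97-led cluster as a whole, 54.0% of cells held rag1, against 40.2% in the zbtb7b-led cluster as a whole. Over all their cells the median depths were 1468 and 2593 UMIs. Median depth also differed, at 2640 UMIs in the zbtb7b-led and 1303 UMIs in the tmem97-led CD8 cells, and its part in the split was not tested.

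**Figure D2:**
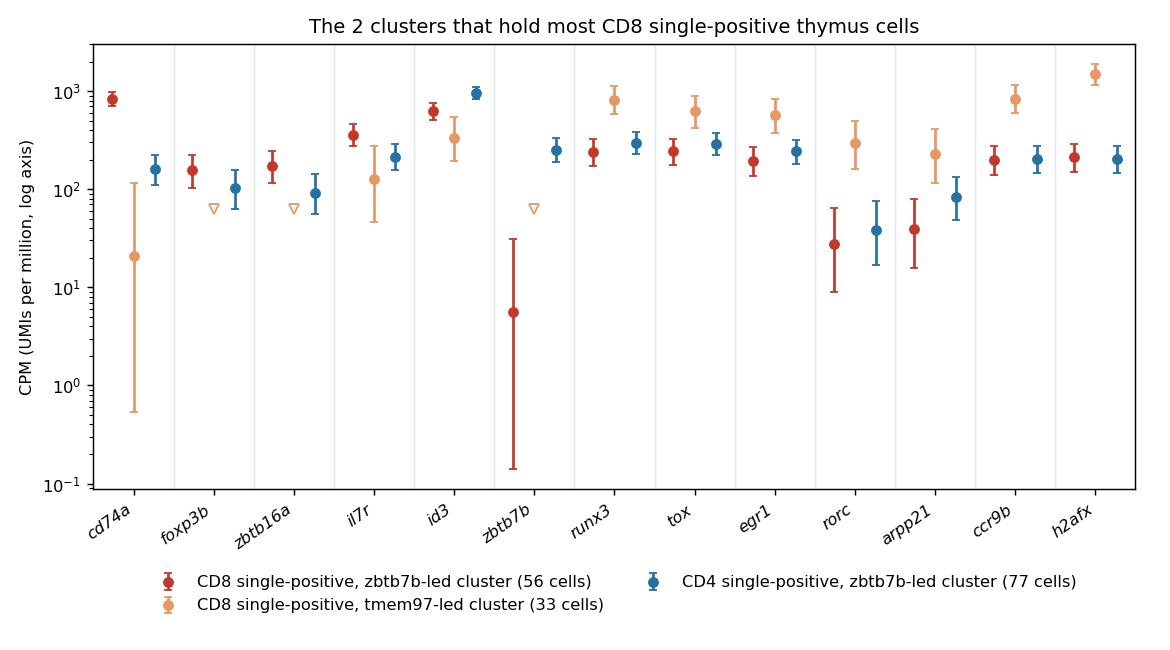
CPM on a log axis, with exact Poisson 95% intervals, of 13 genes in CD8 cells of the zbtb7b-led cluster (56 cells), CD8 cells of the tmem97-led cluster (33 cells) and CD4 cells of the zbtb7b-led cluster (77 cells); open triangles mark the limit of 3 UMIs where none was found. Among the 13 genes drawn, the CD8 and CD4 cells within the zbtb7b-led cluster differ most in zbtb7b and cd74a. The tmem97-led cells are higher in rorc, ccr9b and h2afx.

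MHC class II genes were higher in the CD8 cells than in the CD4 cells of the zbtb7b-led cluster. The invariant chain gene cd74a, whose protein is a chaperone of class II molecules, was found in 35 of these 56 cells. It had a median of 2 and a maximum of 14 UMIs per cell. Among the CD4 cells of the same cluster 13 of 77 held it, at a median of 0 and a maximum of 8. The levels were 838 CPM in the CD8 cells and 160 CPM in the CD4 cells, a ratio of 5.23 (3.57 to 7.87). Its paralogue cd74b had a ratio of 7.26 (4.33 to 12.9) and the class II alpha chain gene si:busm1-266f07.2 (mhc2daa) one of 6.93 (4.12 to 12.3). The beta chain gene zgc:103700 (mhc2dhb) had 23 UMIs against 6, a ratio of 4.38 (1.73 to 13.2). The 7 defining macrophage genes had 0 UMIs both in these 56 CD8 cells and in these 77 CD4 cells. In the tmem97-led CD8 cells cd74a had 1 UMI in 33 cells. This set of genes was singled out after its values were seen.

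A difference in the share of cells with cd74a was also seen at equal depth, over the whole classes. After thinning to 2000 UMIs, 33 of 56 CD8 cells held it (58.9%, interval 45.0 to 71.9), against 13 of 53 CD4 cells (24.5%, interval 13.76 to 38.28) and 122 of 865 double-positive cells (14.1%). Thinned to 1000 UMIs, the shares were 27.9%, 8.18% and 7.80%. Without thinning they were 39.6%, 17.3% and 15%, and 1 of the 10 cells of the haemoglobin-led cluster held it. Outside the thymus, cd74a was held by 50 of 66 marrow cells (75.8%) and 14 of 17 scale cells (82.4%) at 2000 UMIs. The thymus shares were not matched by cluster. All 4 CD8 cells of the c1qc-led cluster held cd74a. Of the tmem97-led CD8 cells 1 of 33 held it, and with a median of 1303 UMIs most of these are left out at 2000 UMIs. The summed levels over whole classes rest on few cells. The log2 ratio of CD8 over CD4 cells was 1.44, and -1.10 without the c1qc-led and haemoglobin-led clusters. Of the 1101 cd74a UMIs of the 111 CD8 cells, 83.9% came from the 4 cells in the c1qc-led cluster, the fullest with 399. A single CD4 cell held 200 of the 403 cd74a UMIs of its class.

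The CD8 cells were set against the double-positive cells. Of 2103 genes with a mean of at least 50 CPM, 207 (9.84%) were at least 2-fold higher and 217 (10.3%) at least 2-fold lower, taken on the ratio of UMIs plus 3 per 1000000, 20.2% in all. The rule genes were left out. The median log2 ratio over all 2103 genes was 0.07.

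The top of the ranking held foxp3b, a paralogue of the regulatory T cell factor gene, and a factor of innate-like T cells. For foxp3b the CD8 cells had 28 UMIs in 18 of 111 cells (101 CPM), against 8 UMIs in 7 of 1847 double-positive cells (1.36 CPM), a ratio of 74.2 (32.97 to 188.5). The CD4 cells, at 76.0 CPM in 17 of 110 cells, lay close to the CD8 cells. Its paralogue foxp3a was at 61.5 CPM in CD8 cells and 3.75 CPM in double-positive cells. At least 1 of the pair was found in 26 CD8 cells and both in 6. The PLZF gene zbtb16a was at 116 CPM in 20 CD8 cells, against 7.16 CPM in 28 double-positive cells, a ratio of 16.2 (9.88 to 26.2).

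Of the other top genes the stathmin-family gene stmn4l was at 105 CPM in CD8 cells and 1.36 CPM in double-positive cells, a ratio of 76.9 (34.3 to 194.7). The proteolipid gene zgc:136605 (plp2a) was at 195 against 2.90 CPM, a ratio of 67.4 (38.5 to 124). Among the more widely held genes were dtnbp1a (dysbindin), seen in 63.1% of CD8 cells and 18.9% of double-positive cells at 926 and 107 CPM, and ipcef1, seen in 40.5% and 7.96% at 322 and 29.7 CPM. The remaining genes named by rank were si:ch211-214p13.8, BX897691.1, zgc:103700, cd74a, si:dkey-109a10.2, si:ch73-285p12.4, si:busm1-266f07.2, si:dkey-262k9.2 and abi3a, with ratios between 7.56 and 40.1. All 15 stayed past 2-fold without the c1qc-led and haemoglobin-led clusters. There cd74a had a log2 ratio of 1.94 in place of 3.63, and zgc:103700 one of 1.81 in place of 3.68. Adding the same CPM to both classes, in place of the same 3 UMIs, gave foxp3b a log2 ratio of 3.198 in place of 5.90.

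Few maturation genes passed the level filter. Of 6 tested genes of the maturation and egress list, 2 were called higher and none lower, against 9.84% and 10.3% over all genes. For il7r the CD8 cells had 260 CPM, 72 UMIs in 39 of 111 cells and at most 6 in a cell, against 39.6 CPM in 163 of 1847 double-positive cells. The ratio was 6.58 (4.98 to 8.61). The T cell factor tcf7 was at 148 CPM in CD8 cells against 31.7 CPM, a ratio of 4.68 (3.25 to 6.59). The repressor bach2b (109 against 82.0 CPM) and ikzf1 (163 against 139 CPM) were within 2-fold. The list's median log2 ratio was 0.51. The egress receptor s1pr1 had 0 UMIs in both classes, which allows up to 10.8 CPM in the CD8 cells, so a difference was not detectable at this depth.

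In the selection and immediate early list, genes that follow receptor signalling, 4 of 8 tested genes were called higher, against 9.84% over all genes, and none lower. The list's median log2 ratio was 1.21. For egr1 the CD8 cells had 275 CPM and the double-positive cells 75.4 CPM, a ratio of 3.65 (2.82 to 4.66). The AP-1 gene jun was at 97.6 against 31.7 CPM and the NF-kB inhibitor gene nfkbiaa at 141 against 54.9 CPM. The jund value, 130 against 20.1 CPM, came from 7 CD8 cells. By contrast tox was level, at 304 and 302 CPM, and nr4a1 at 79.6 against 46.0 CPM missed the 2-fold mark. Outside that list id3, induced by the receptor in mice, was at 474 CPM in CD8 cells and 71.6 CPM in double-positive cells, a ratio of 6.62 (5.40 to 8.07).

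The receptor gene trbc1 was at 2394 CPM in CD8 cells and 4032 CPM in double-positive cells, a ratio of 0.594 (0.549 to 0.641). Of 11 tested genes of proximal receptor signalling 1 was called higher, the adaptor gene sh2d1ab (297 against 46.4 CPM). Another 1 was called lower, the adaptor gene grap2b (586 against 1553 CPM). These counts lie near the shares over all genes, 9.84% higher and 10.3% lower. The list median was 0.34. The kinase genes zap70 (481 against 326.5 CPM) and lck (271 against 512 CPM) were within 2-fold. The gfp transgene, driven by the lck promoter, was at 879 against 1523 CPM, a ratio of 0.577 (0.506 to 0.656), with a CD8 share at background.

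Among CD8 fate genes runx3 was lower than in the double-positive cells, at 362 CPM against 940 CPM, a ratio of 0.385 (0.313 to 0.469). It was seen in 62 of 111 CD8 cells and in 1572 of 1847 double-positive cells. After thinning to 1000 UMIs the shares were 35.1% and 64.3%, and 3 of the 10 haemoglobin-led cells held it, so the CD8 share (interval 26.3 to 44.8) cannot be told from background. It was the only gene of the CD8 lineage and cytotoxic list that passed the level filter. Genes of the killer programme were near 0 in CD8 cells: gzmk had 6 UMIs in 4 cells, tbx21 had 1, and gzma, nkl.1, eomesa and prf1.1 had 0.

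**Figure D3:**
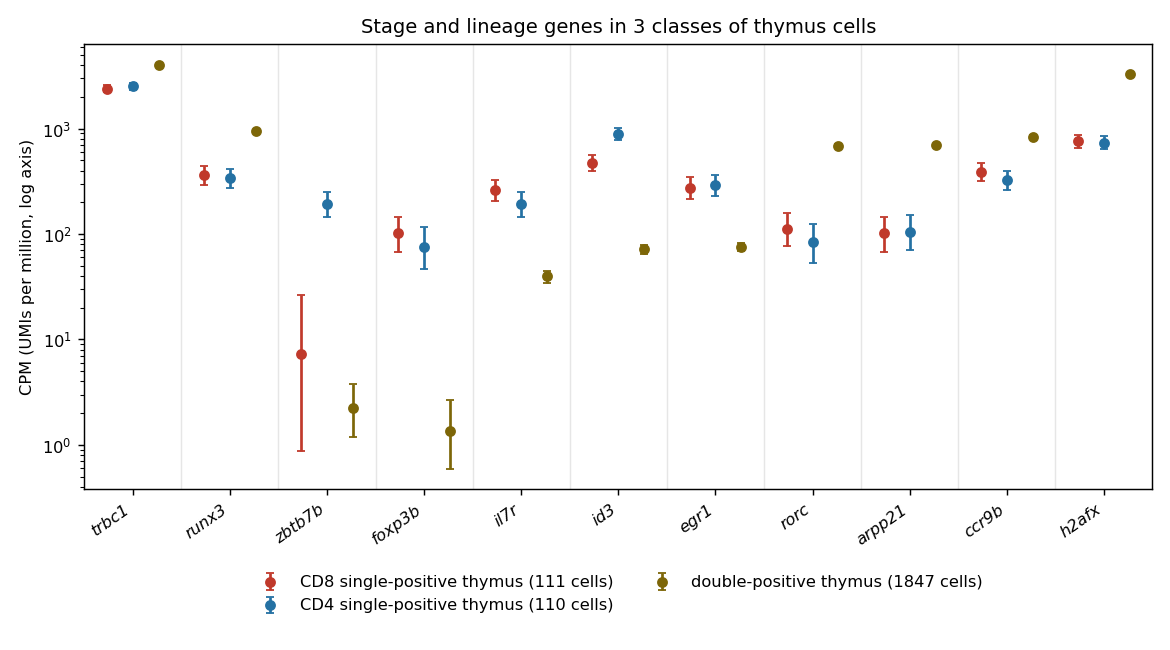
CPM on a log axis, with exact Poisson 95% intervals, of 11 genes in CD8 single-positive (111 cells), CD4 single-positive (110 cells) and double-positive (1847 cells) thymus cells. The single-positive classes lie together and apart from the double-positive cells for every gene drawn except zbtb7b, at 7.23 CPM in CD8, 192 CPM in CD4 and 2.22 CPM in double-positive cells, and id3 also differs between CD8 and CD4.

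Of 9 tested genes of the double-positive stage list 7 were called lower and none higher, against 10.3% and 9.84% over all genes. The list's median log2 ratio was -2.05. For rorc the CD8 cells had 112 CPM against 691 CPM, a ratio of 0.162 (0.110 to 0.231). Without thinning 20 of 111 cells held it, a share of 18.02% against 4 of the 10 haemoglobin-led cells. At 1000 UMIs the CD8 share was 9.91%, below that of the haemoglobin-led cells, which puts it at background. For arpp21 they had 101 CPM against 699 CPM, a ratio of 0.145 (0.0962 to 0.210). The aminopeptidase-like gene si:ch211-106j24.1, zgc:158445, rasa4, p2rx1 and ccr9b made up the rest, with log2 ratios between -2.17 and -1.08. The chemokine receptor ccr9a (731 against 481 CPM) and tcf12 (109 against 80.3 CPM) were not called. At least 1 of rorc, arpp21 and si:ch211-106j24.1 was found in 44 CD8 cells, and how many of these UMIs are free RNA was not tested. Double-positive cells are defined by rag1, and how much of this difference follows from that rule was not tested.

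Division genes filled most of the lowest ranks. Of 22 tested cell cycle genes 16 were called lower, with a median log2 ratio of -2.61, and of 15 histone genes 8 were. Over all genes 10.3% were called lower. The 12 lowest genes by rank included the histone genes si:dkey-108k21.10 and HIST2H3C, at 36.2 CPM each against 1329 and 1135 CPM, and the mitosis genes aspm (7.23 against 329 CPM), cenpf (14.5 against 460.5 CPM) and nusap1 (14.5 against 403 CPM). The histone gene zgc:113983 had 0 UMIs in CD8 cells and 1169 in double-positive cells, at least 18.4-fold lower with 3 UMIs as the floor. The CD8 rule removes dividing cells and the double-positive rule does not. Against the 1460 double-positive cells with fewer than 3 division UMIs, none of the 12 genes was past 2-fold (log2 ratios -0.86 to 0.43), and the cell cycle median was -0.12. With the c1qc-led and haemoglobin-led clusters left out as well, that median was 0.15. The variant gene h2afx stood apart from this. It was at 756 CPM in CD8 cells, where its share was at background, and 3291 CPM in double-positive cells, and its log2 ratio of -2.102 was -2.43 against those 1460 cells.

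Housekeeping lists showed no 2-fold calls or nearly none. None of 79 cytosolic ribosomal protein genes and none of 13 MHC class I and antigen processing genes was called, with median log2 ratios of 0.32 each. For b2m, the class I light chain, the CD8 cells had 1295 CPM and the double-positive cells 921 CPM. Of 72 nuclear-encoded oxidative phosphorylation genes 2 were called, both higher. In the chemokine and adhesion list 1 of 7 was called, ccr9b. Over all genes 20.2% were called.

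**Figure D4:**
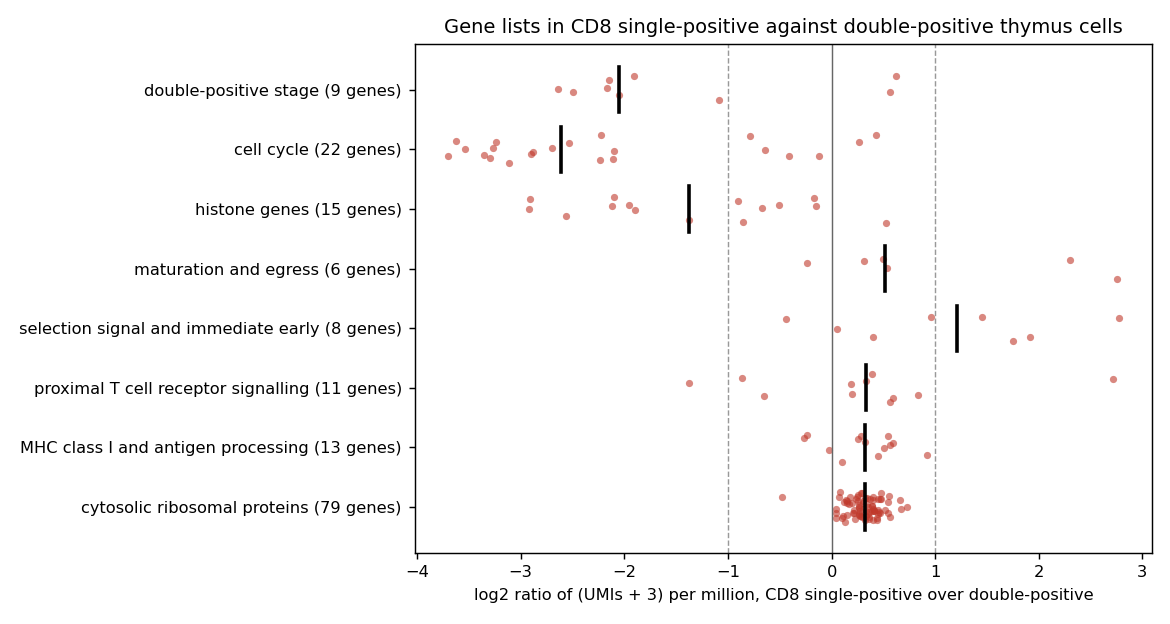
Log2 ratio of UMIs plus 3 per 1000000, CD8 single-positive over double-positive cells (horizontal axis), for the tested genes of 8 lists; each point is a gene, black bars are medians, and dashed lines mark 2-fold. Double-positive stage, cell cycle and histone genes lie to the left (medians -2.05, -2.61 and -1.38) and selection genes to the right (median 1.21), while ribosomal and MHC class I genes lie within 2-fold.

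The CD8 and CD4 single-positive cells were much closer to each other. Of 1986 genes tested 55 (2.77%) were at least 2-fold higher in CD8 cells and 28 (1.41%) at least 2-fold lower, 4.18% in all. No gene of the maturation list (7 tested), receptor signalling (12), cell cycle (11), histone (13) or MHC class I lists (14) was called. The il7r gene was at 260 CPM in CD8 cells and 192 CPM in CD4 cells, egr1 at 275 and 290 CPM, runx3 at 362 and 337 CPM, and trbc1 at 2394 and 2526 CPM. For runx3 the ratio was 1.07 (0.802 to 1.44).

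The gene that separated the lineages was zbtb7b (ENSDARG00000021891), the ThPOK gene. The CD8 cells held 2 UMIs of it in 2 of 111 cells, and the CD4 cells 53 UMIs in 34 of 110 cells, with at most 5 in a cell. The levels were 7.23 CPM (0.876 to 26.1) against 192 CPM (144 to 251), a ratio of 0.0377 (0.00445 to 0.143). The double-positive cells held 13 UMIs in 8 of 1847 cells. Within the zbtb7b-led cluster, where CD8 and CD4 cells lay together, the counts were 1 UMI in 56 CD8 cells and 52 UMIs in 77 CD4 cells. After thinning to 2000 UMIs 1 of 56 CD8 cells and 14 of 53 CD4 cells held it. Its log2 ratio of -3.49 lay between -3.71 and -2.88 under 7 alternatives: 2 coreceptor UMIs, 2000 UMIs per cell, median scaling, the same added CPM, and leaving out the c1qc-led and haemoglobin-led clusters, the ch25h-led cluster or the highest cell.

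Other genes of the CD4 list were shared. The factor gata3 was at 86.8 CPM in CD8 cells and 94.1 CPM in CD4 cells, foxp3b at 101 and 76.0 CPM, foxp3a at 61.5 and 79.6 CPM, and cd40lg, at background in CD8 cells, at 39.8 and 65.1 CPM. Of 5 list genes tested only zbtb7b was called, against 4.18% over all genes. The foxp3b ratio was 1.33 (0.730 to 2.47).

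Smaller differences lay on the CD4 side. The inhibitor id3 was at 474 CPM in 52 CD8 cells and 890 CPM in 76 CD4 cells, a ratio of 0.532 (0.427 to 0.660), just short of a 2-fold call. The protease inhibitor gene spint1a was at 47.0 against 159 CPM, a ratio of 0.295 (0.146 to 0.558), and the co-repressor gene rerea at 25.3 against 105 CPM. The chemokine receptor cxcr4a was at 72.3 against 163 CPM, a ratio of 0.444 (0.248 to 0.768). Also lower by rank were si:dkey-276j7.1, ebna1bp2, CU929070.1, hivep3b and si:dkey-1h24.6, with ratios between 0.318 and 0.3997. At a minimum of 2000 UMIs per cell hivep3b and si:dkey-1h24.6 were no longer past 2-fold, with log2 ratios of -0.78 and -0.94. The gene epdl1 had 0 UMIs in CD8 cells and 31 in the CD4 class, all in 2 cells.

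On the CD8 side the genes named by rank included the cathepsin gene ctss2.1 (636.5 against 119 CPM), zgc:103700 (427 against 79.6 CPM), the prosaposin gene psap (354 against 83.2 CPM), si:busm1-266f07.2 (1168 against 293 CPM) and the ferritin gene fth1a (1016 against 257 CPM). Without the c1qc-led and haemoglobin-led clusters, which took 5 CD8 cells and no CD4 cell, none of the 5 was past 2-fold, and the count of higher genes was 23 in place of 55. The macrophage list had a median log2 ratio of 2.31 with these cells and -0.32 without them. The other 3, trappc1, tpst1l and PAXBP1, rested on 25 to 28 UMIs in CD8 cells and 5 or 6 in CD4 cells, and all 3 stayed past 2-fold.

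The CD8 cells of the thymus were then set against the 70 kidney marrow cells that met the same rule. Of 1797 genes tested 411 (22.9%) were at least 2-fold higher in the thymus cells and 130 (7.23%) at least 2-fold lower, 30.1% in all. The median log2 ratio over all genes was 0.36; after scaling by the median ratio the counts were 228 higher and 209 lower, so the share of higher genes among those called was 52.2% in place of 76.0%. Tissue, GFP gate, software version and library cannot be told apart in this comparison. Erythroid genes summed to 485 CPM in the thymus cells and 14184 CPM in the marrow cells. The macrophage or dendritic list stood at 6087 CPM in the thymus cells and 2277 CPM in the marrow cells. A single marrow cell held 98.2% of the hbaa1 UMIs and 97% of the hbba2 UMIs.

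Effector genes were at or near 0 in the thymus cells and higher in the marrow cells. Of 8 tested genes of the CD8 lineage and cytotoxic list 7 were called lower in the thymus cells, against 7.23% over all genes. The list's median log2 ratio was -4.50. Those 7 genes stood at 39.8 CPM or less in the thymus cells, so the level filter passed them only because the marrow cells held more. Their direction was thus set by the filter, and the count and median are a description. The chemokine gene ccl36.1 had 0 UMIs in thymus cells against 239 in 17 of 70 marrow cells, at least 80.7-fold lower, and ccl34b.4 had 0 against 174 in 37 marrow cells, at least 58.7-fold lower. The NK-lysin gene nkl.1 had 0 against 96 in 7 marrow cells, at least 32.4-fold lower. Granzyme genes followed: gzmk was at 21.7 against 487 CPM, a ratio of 0.0446 (0.0161 to 0.0996), and gzma had 0 against 38 UMIs. The interleukin-2 receptor beta gene il2rb was at 39.8 CPM in 4 thymus cells and 275 CPM in 21 marrow cells. A count of 0 in the thymus cells allows up to 10.8 CPM. The gene of the list that was higher was runx3, at 362 CPM in thymus cells, where its share cannot be told from background, against 124.5 CPM, a ratio of 2.90 (1.95 to 4.42).

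Marrow background was measured in the 518455 marrow barcodes with at most 100 UMIs. The ccl34b.4 gene was at 637 CPM in the 70 marrow cells and 663 CPM (638 to 689) in these barcodes, so its summed level cannot be told from background. In the same order ccl36.1 was at 875 and 440.5 CPM, nkl.1 at 351.5 and 249 CPM, gzmk at 487 and 283.5 CPM, il2rb at 275 and 116 CPM, and gzma at 139 and 23.5 CPM. A further 12 marrow cells, outside the CD8 rule, took at least 20% of their UMIs from erythroid genes (median 7305 UMIs). Of these 1 held ccl36.1, an upper limit of 38.48% by the exact interval, and none held the other 5, an upper limit of 26.46%. Among the 70, the shares of gzmk (64.3%), ccl34b.4 (52.9%) and il2rb (30%) were above this limit as point values. Their own intervals were not set against it, and the il2rb share lay close to it. Those of ccl36.1 (24.3%), gzma (18.6%) and nkl.1 (10%) were within it, so the 12 cells cannot tell these genes from background. The runx3 gene was at 124.5 CPM in the 70 marrow cells and 84.6 CPM in barcodes of at most 100 UMIs.

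Of 9 tested chemokine and adhesion genes 2 were called higher in the thymus cells and 3 lower, and of 10 tested maturation and egress genes 3 higher and 5 lower, against 22.9% and 7.23% over all genes. The sphingosine-1-phosphate receptor gene s1pr4 had 0 UMIs in thymus cells and 78 in 30 marrow cells, at least 26.3-fold lower. The quiescence factor klf2a had 1 UMI against 34, and klf3 had 0 against 28. The lymph node homing receptor ccr7 was at 28.9 CPM in 7 thymus cells and 194 CPM in 32 marrow cells, a ratio of 0.149 (0.0612 to 0.316). The retention receptor cxcr4b was at 253 against 2186 CPM, a ratio of 0.116 (0.0891 to 0.149), and cxcr3.1 at 7.23 against 209 CPM. Except cxcr4b, each of these genes was at 28.9 CPM or less in the thymus cells and passed the level filter only through the marrow cells. In the other direction ccr9b was at 387 CPM in thymus cells against 36.6 CPM, a ratio of 10.6 (5.53 to 22.7), and the integrin gene itgae.2 at 532 against 161 CPM. The related ccr9a did not differ by 2-fold, at 731 against 787 CPM. Barcodes of at most 100 UMIs held s1pr4 at 197, klf2a at 105, klf3 at 119, ccr7 at 57.0 and cxcr4b at 1396 CPM, and the klf3 level of the 70 marrow cells, 102.5 CPM, was not above this.

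The il7r gene was at 260 CPM against 43.9 CPM, a ratio of 5.93 (3.19 to 12), and tox at 304 against 95.2 CPM, a ratio of 3.19 (2.03 to 5.16). Marrow barcodes of at most 100 UMIs held il7r at 50.87 CPM (44.05 to 58.45), and its level in the marrow cells was not above this. Of 7 tested genes of the double-positive list 5 were called higher in the thymus cells and 1 lower, against 22.9% and 7.23% over all genes. The list's median log2 ratio was 2.71, which was -0.33 at a minimum of 2000 UMIs per cell. The 5 higher genes included rorc and si:ch211-106j24.1, both with 31 UMIs in thymus cells and 0 in marrow cells. These 2 passed the level filter only through the thymus cells. Both were at least 10.2-fold higher, although the thymus share of rorc was at background. All 7 tested cell cycle genes were higher, against 22.9% over all genes, with a median log2 ratio of 2.72. The whole list summed to 3562 CPM in thymus cells and 513 CPM in marrow cells. The level filter thus favoured list genes high in the thymus cells, and the 7 of 7 is a description. The highest gene was h2afx, with 209 UMIs in 58 thymus cells against 3 UMIs in 3 marrow cells (756 against 11.0 CPM, a ratio of 68.8 with interval 23.2 to 336), with the thymus share at background, followed by si:ch211-161c3.6, ipcef1 and the chromatin remodeller gene hells. The transgene gfp was at 879 CPM in thymus cells and 114 CPM in marrow cells, and the sort gates were set on GFP. The tcf7 ratio of 2.38 was no longer past 2-fold after median scaling (log2 0.76).

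**Figure D5:**
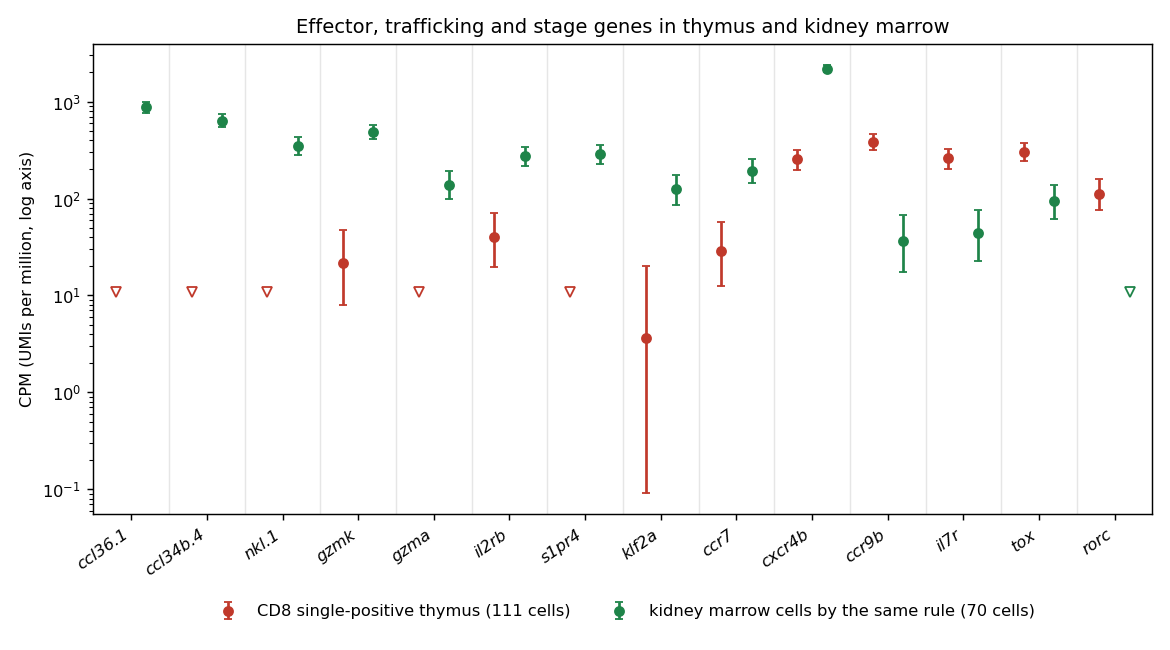
CPM on a log axis, with exact Poisson 95% intervals, of 14 genes in CD8 single-positive thymus cells (111 cells) and kidney marrow cells by the same rule (70 cells); open triangles mark the limit of 3 UMIs where none was found. Effector, egress and homing genes on the left are higher in the marrow cells, and ccr9b, il7r, tox and rorc on the right are higher in the thymus cells.

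Scale, a skin site, gave 17 cells by the rule with 65975 UMIs. In the thymus cells ccr9a was at 731 CPM (633 to 838), against 4032 CPM (3562 to 4547) in the scale cells, where all 17 held it. The gene cxcr4b was at 253 CPM in thymus cells and 1258 CPM in scale cells. For il7r the values were 260 CPM (204 to 328) in thymus cells and 212 CPM (116 to 356) in scale cells, and for foxp3b 101 CPM (67.3 to 146) and 106 CPM (42.7 to 219), intervals that overlap. The zbtb7b gene had 2 UMIs in the thymus cells and 0 in the scale cells, where 0 allows up to 45.5 CPM.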

How the data were processed

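Cells of lck:GFP zebrafish thymus, kidney marrow and scale were measured in 3 droplet libraries. Per the submitters' processing notes Cell Ranger 6.0.0, Seurat 4.3.0 and GRCz11 were used; the header of the marrow matrix names Cell Ranger 4. The files the authors deposited are raw UMI counts per gene and barcode, 31903 features, with no normalization; 29177 features matched a table of current symbols. A marrow cell also needed at least 1394.89 UMIs, since that matrix is unfiltered; its barcodes with at most 100 UMIs gave a marrow background.

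Counts were summed per class and given per 1000000 UMIs (CPM) with exact Poisson 95% intervals; ratios have exact conditional binomial intervals and shares Clopper-Pearson intervals, which cover counting error only, and molecules of 1 library are not replicates. Genes with a mean of at least 50 CPM over the classes compared were tested for a 2-fold difference in UMIs plus 3, with rule and mitochondrial genes left out. A gene near 0 in 1 class passed this filter only through the other class, so its direction was set by the filter. A count of 0 was given a limit of 3 UMIs. Thinning drew UMIs at random without replacement, at 1000 or 2000 per cell. Clusters (scanpy 1.11.5, Leiden, resolution 1, seed 1, 2000 variable genes, 30 components, 15 neighbours) left out the 8 rule genes. Genes named by rank are the 15 highest and 12 lowest against double-positive cells, and the 8 highest and 8 lowest in the other comparisons, among genes seen in at least 10% of cells of the higher class; list genes are named with their list. The members, rules and 22 gene lists were chosen with earlier results of these data known. The scripts were tested on simulated data. No doublet caller was run, so doublets are not controlled.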

Additional observations from a re-analysis of the deposited data

Results flagged for a closer look

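Among thymus barcodes below the depth filter, 52 with at least 500 and under 1000 UMIs met the rest of the CD8 rule, a group that no comparison above used. Their 38035 UMIs held 198 of trbc1, at 5206 CPM (4506 to 5984). They held 19 UMIs of rorc, 1 of zbtb7b and 0 of foxp3b. Since 8 of the 10 haemoglobin-led thymus cells held trbc1 too, this level does not say what these barcodes are, and how many are CD8 single-positive cells was not tested.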

How the results depend on the processing

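The number of CD8 cells was 56 with a minimum of 2000 UMIs, 72 with at least 2 coreceptor UMIs and 46 without cells holding 2 or more UMIs of other lineages; that list includes cd74a and srgn, which T cells hold too. Against double-positive cells the counts of higher and lower genes, 207 and 217, were 742 and 362 at a mean of 20 CPM, 94 and 126 at 100 CPM, and 618 and 92 without the cells of other lineages. Against CD4 cells the 55 higher and 28 lower were 86 and 43 at 2000 UMIs, 91 and 49 with 2 coreceptor UMIs, 180 and 131 at 20 CPM, and 22 and 5 at 100 CPM. The higher count was 382 without the cells of other lineages, 23 without the c1qc-led and haemoglobin-led clusters, and 35 without each gene's highest cell. Against marrow cells the 411 and 130 were 228 and 209 after median scaling, 856 and 310 at 20 CPM, and 195 and 70 at 100 CPM. Leaving out cells of other lineages kept only 2 marrow cells, so it gave no value there.

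Of 1521 recomputed gene ratios 285 were marked as moved and 17 as reversed, and of 385 list medians 33 and 5. Of 78 thinned shares 34 were marked as moved, and of 90 counts 26. The reversed results were at least 2-fold as first computed, and the totals include smaller ones. The counts of reversals are therefore no measure of how stable the results are. Values of the reversed results follow. Against double-positive cells with fewer than 3 division UMIs, the log2 ratios were 0.17 for FP340257.1, 0.078 for cenpf, 0.43 for nusap1 and 0.14 for zgc:113983; with both clusters left out too, they were 0.25, 0.51 and 0.21 for FP340257.1, nusap1 and zgc:113983, and 0.15 for the cell cycle list. Without the clusters the values against CD4 cells were -1.10 for cd74a, -0.32 for ctss2.1 and the macrophage list, and -0.43 for psap, and against marrow the macrophage list was at -0.92. Without cells of other lineages p2rx1 was at 0.32 against double-positive cells, and against CD4 cells ctss2.1 was at -0.56, ebna1bp2 at 0.35, epdl1 at 1.25, p2rx1 at 0.51 and si:dkey-1h24.6 at 0.18. With 2 coreceptor UMIs hbaa1 was at 0.90 and the erythroid list at 0.97 against marrow. At 2000 UMIs the double-positive list was at -0.33 against marrow. The cause of these changes was not tested. Alternatives chosen after seeing the data were those on the clusters, the highest cell and the same added CPM. No paired analysis was possible because each tissue has 1 library.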
